A study of Mus musculus with 6 samples.

Results

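The genes of sphingosine 1-phosphate (S1P) and lysophosphatidic acid (LPA) signalling were followed in sinusoidal endothelial cells (SECs) from fibrotic mouse livers. The mice were endothelial RBPj knock-outs or controls. RBPj is the DNA-binding protein that carries Notch signals to target genes. The 10 genes were chosen by name and by role: the S1P receptors S1pr1, S1pr2 and S1pr3, the sphingosine kinases Sphk1 and Sphk2, the exporter Spns2, the S1P phosphatase Sgpp1, the S1P lyase Sgpl1, and the LPA receptors Lpar4 and Lpar6. All 10 were found among the 41799 rows of the gene table, and all 10 passed the filter on low counts, which left 15404 genes. RNA sequencing was available for 3 libraries of endothelial RBPj knock-out (KO) SECs and 3 of control SECs. Both groups came from male mice that were given tamoxifen from an age of 4 to 6 weeks (2 mg per 20 g body weight daily for 7 days), the drug that induces the deletion. After a week of rest both groups received carbon tetrachloride (CCl4, 0.6 μl per g, 15% in olive oil), a liver toxin, 2 times a week for 6 weeks, and the labelled age was 12-14 weeks. The labels give the strain as C57BL/6 for KO replicate 1 and the 3 control libraries, as C57BL/7 for KO replicate 2 and as C57BL/8 for KO replicate 3. The Cre driver and the deleted allele, and therefore which endothelial cells could lose RBPj, are named by none of the sources used, and no unfibrotic liver was analysed here.

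S1P and LPA are small phospholipids that signal through G protein-coupled receptors. S1P is made inside the cell by the sphingosine kinases, leaves endothelial cells through the transporter Spns2, and is removed by dephosphorylation to sphingosine (Sgpp1) or by irreversible cleavage (Sgpl1). On endothelium S1pr1 acts through Gi and Rac and is known for tightening junctions, whereas S1pr2 acts largely through G12/13 and is known for loosening them. LPA is made outside the cell by autotaxin, encoded by Enpp2, and Lpar4 and Lpar6 are LPA receptors that couple to G12/13.

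The promoters of the genes whose libraries separated the groups are shown first. In the RefSeq promoter table (GRCm38.p6), 9 of the 10 genes had an entry; S1pr1 is named only. The windows below are the 250 bases before the start site, written 5′ to 3′ on the strand of the gene. Capitals mark the letters TGGGAA, the core to which RBPj is known to bind, or their reverse complement TTCCCA; no overlap with another motif was scored. Lpar6 is at chr14:73237641-73237890 (+ strand), S1pr2 at chr9:20976794-20977043 (- strand) and Sgpp1 at chr12:75735730-75735979 (- strand).
Lpar6: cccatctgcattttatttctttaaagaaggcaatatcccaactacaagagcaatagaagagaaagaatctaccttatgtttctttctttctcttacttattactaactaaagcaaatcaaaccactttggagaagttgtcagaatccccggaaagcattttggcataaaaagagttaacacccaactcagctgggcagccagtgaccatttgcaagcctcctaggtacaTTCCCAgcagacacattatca
S1pr2: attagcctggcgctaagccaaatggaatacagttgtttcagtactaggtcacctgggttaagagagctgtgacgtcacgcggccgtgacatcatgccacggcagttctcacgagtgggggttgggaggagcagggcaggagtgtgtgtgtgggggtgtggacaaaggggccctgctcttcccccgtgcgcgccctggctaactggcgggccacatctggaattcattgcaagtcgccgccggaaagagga
Sgpp1: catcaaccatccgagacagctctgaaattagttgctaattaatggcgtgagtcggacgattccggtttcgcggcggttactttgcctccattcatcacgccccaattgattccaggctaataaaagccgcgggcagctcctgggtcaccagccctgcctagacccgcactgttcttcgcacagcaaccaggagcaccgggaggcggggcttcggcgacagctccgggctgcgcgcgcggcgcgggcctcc
Over windows of 300 bases (250 before and 50 after the start), the letters were found on either strand in 3 of the 9 genes, 33.3%, against 28.3% of the 27025 genes of the table. Counted by window, it was 21.4% of the 14 windows of these genes, against 25.6% of 32851 windows. These were Lpar6, with the match beginning 21 bases before the start site, Sphk1, in 1 of its 5 windows and 214 bases before that start, and S1pr3, at base 14 of the transcribed part. The 30 bases that hold the Sphk1 match and its flanks are at chr11:116531611-116531640 (+ strand). Those that hold the S1pr3 match are at chr13:51408619-51408648 (+ strand).
Sphk1: aggggtgtaaggTGGGAAgccggggatggg
S1pr3: cggggacgtggcTGGGAAccagggcgtatc
The share among these genes was above that of all genes by gene and below it by window, and a match in letters describes the sequence only.

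The libraries held 10503026 to 12326770 counts in KO and 10372195 to 11268228 in control SECs. Rbpj, the targeted gene, had 128, 99 and 154 counts in KO libraries and 174, 172 and 173 in control libraries. It was lower in every KO library than in any control library, at a log2 fold change of -0.64 ± 0.19 (SE), which missed the threshold of 0.05 with an edgeR adjusted p of 0.187. Rbpj RNA thus remained in every KO library, and how far RBPj was lost in the sequenced cells was not tested. Sinusoidal endothelial markers (12 genes, 0 of them at 0) summed to 22152 to 27345 CPM (counts after TMM scaling of library totals) in KO and 14559 to 21170 CPM in control libraries. These ranges did not overlap, with a ratio of the means of 1.28, but the markers differed in direction, since 9 had a higher and 3 a lower mean in KO libraries. Stab2, Flt4 and 3 others were higher in every KO library, whereas Clec4g had 606, 1041 and 953 CPM in KO libraries, against 2052, 1896 and 1372 CPM in control libraries. The geometric mean of the 12 markers, which weights them equally, ran from 1470 to 1871 CPM in KO and 1112 to 1642 CPM in control libraries and overlapped. Hepatic stellate cell markers (12 genes, 0 at 0) summed to 1457 to 6240 CPM in KO and 4627 to 13002 CPM in control libraries, with KO replicate 1 lowest and control replicate 3 highest. These sums overlapped, but all 12 stellate markers had a lower mean in KO libraries, and 7 of them were lower in every KO library. Macrophage markers (12 genes, 0 at 0) summed to 788 to 3103 CPM in KO and 2570 to 4912 CPM in control libraries. These sums overlapped too, but 10 macrophage markers had a lower and 2 a higher mean in KO libraries. Of them, 2 (Clec4f and Lyz2) were lower in every KO library. Neutrophil markers (7 genes, Mpo at 0) reached 3880 CPM in KO replicate 1 and 18436 CPM in control replicate 1, against 275 to 683 CPM in the other 4 libraries. Hepatocyte markers (9 genes, 0 at 0) summed to 183 to 2151 CPM in KO and 401 to 1874 CPM in control libraries. Erythroid and platelet markers (9 genes, Pf4 and Ppbp at 0) summed to 33.4 to 163 CPM in KO and 15.2 to 24.5 CPM in control libraries, nearly all of it Itga2b. Markers of bile duct and mesothelium (7 genes, 0 at 0) summed to 99.7 to 170 CPM in KO and 94.0 to 129 CPM in control libraries, and 3 of them (Msln, Upk1b and Upk3b) were higher in every KO library. Lymphocyte markers (10 genes, Cd2 at 0) summed to 17.9 to 23.9 CPM in KO and 16.0 to 43.6 CPM in control libraries. The libraries therefore held RNA of other cell types in amounts that varied within and, for some markers, between the groups. How much this contributed to the values below was not tested. The scaled values given further on divide by endothelial markers only, so they cannot measure RNA from other cell types. In bulk RNA a smaller number of cells of 1 type cannot be told apart from less RNA of a gene per cell.

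Of the 10 genes, Lpar6 and Sgpp1 were higher in all KO libraries than in any control library, and S1pr2 was lower in all KO libraries. Scaled to endothelial markers, as given further on, the groups overlapped for Lpar6 and stayed separate for Sgpp1. S1pr2 also stayed separate, but by the marker sum it had to, because that sum was higher in every KO library. None passed the adjusted threshold of 0.05: edgeR's quasi-likelihood test with Benjamini-Hochberg adjustment called 0 of the 10, against 30 of all 15404 tested genes (0.195%). At an unadjusted p under 0.05, edgeR took 2 of the 10 as higher (Lpar6 and Sgpp1) and 3 as lower (S1pr2, Sphk1 and Sgpl1), against 17.5% of all tested genes in either direction. By DESeq2, 2 of the 10 were called, Lpar6 and S1pr2, against 6.77% of all genes. By limma-voom with sample quality weights 1 was called, Lpar6, against 3.17%, and edgeR without a filter on low counts also called only Lpar6, against 0.65%. The groups did not overlap for 3 of the 10 genes, and for 24.9% of all tested genes, so this count by itself was near the background. The median log2 fold change of the 10 was -0.10, beside -0.03 for all tested genes, with 5 positive and 5 negative values.

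**Figure D1:**
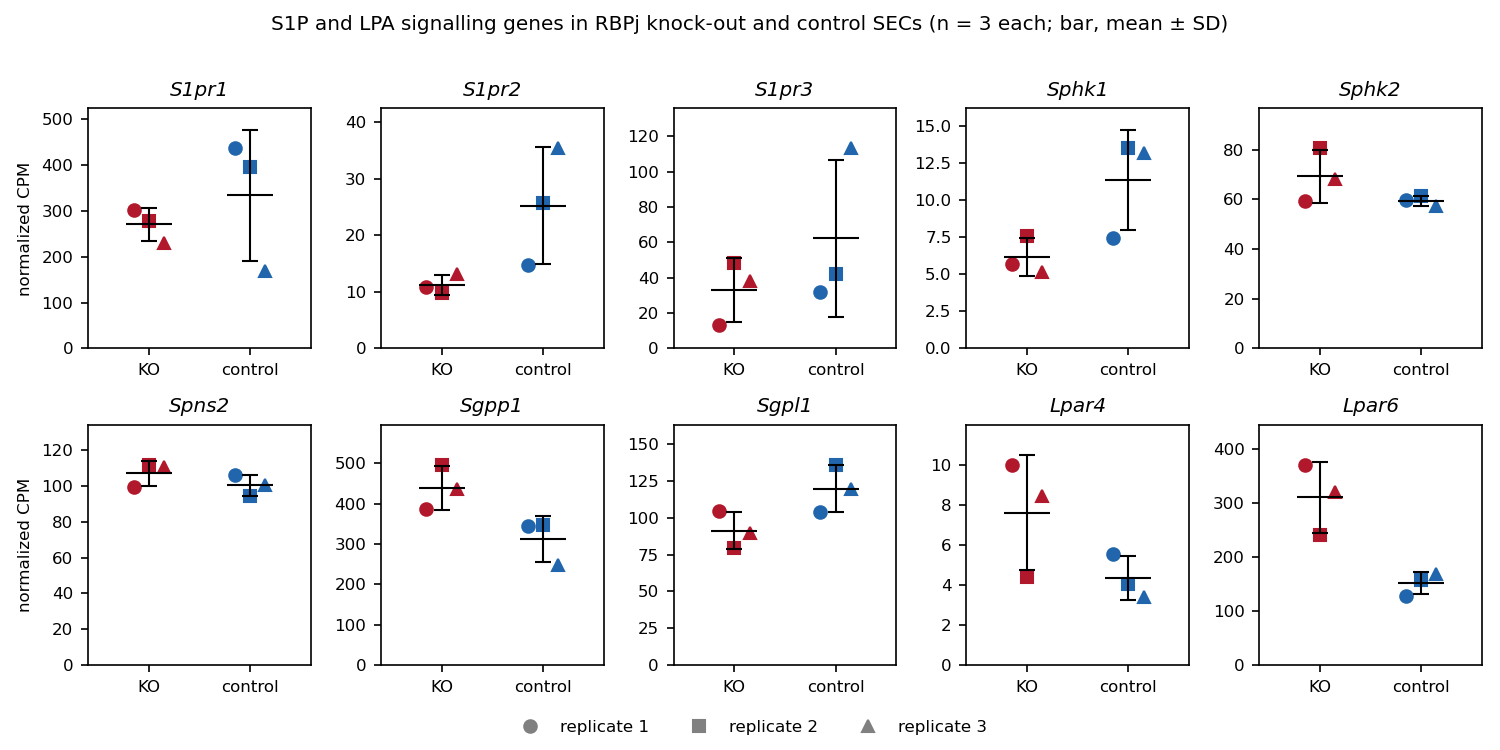
Normalized CPM of the 10 genes in each library, on axes that start at 0, with KO SECs on the left and control SECs on the right (n = 3 each). Symbols mark the replicate number and bars the mean ± SD; the groups separate for Lpar6, Sgpp1 and S1pr2 and overlap for the other 7 genes.

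S1pr1, the barrier-promoting receptor and by length-scaled level the main S1P receptor of these cells, lies on chromosome 3 from 115710433 to 115715055 (- strand, mm10). It had 303, 278 and 231 CPM in KO replicates 1, 2 and 3, against 436, 395 and 170 CPM in control replicates 1, 2 and 3. The KO libraries all lay within the control range, because control replicate 3 was the lowest of the 6 and the other control libraries the highest. The log2 fold change was -0.30 ± 0.35 (SE), with a 95% interval of -1.17 to 0.56 (edgeR adjusted p = 0.685). Without control replicate 3 it was -0.62, and without control replicate 1 it was -0.06, so single control libraries set its size. Control replicate 3 was also the library with the lowest endothelial and the highest stellate marker sum.

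S1pr2, the receptor coupled to G12/13 (chromosome 9, 20965952 to 20976793, - strand), was lower in KO SECs. It had 10.8, 9.82 and 13.2 CPM in KO replicates 1, 2 and 3, against 14.8, 25.7 and 35.4 CPM in control replicates 1, 2 and 3. The KO libraries lay close together and below all control libraries, whose own values differed by more than the gap between the groups. The means were 11.3 ± 1.76 CPM in KO and 25.3 ± 10.3 CPM in control SECs (SD, n = 3 each), a ratio of 0.447. The log2 fold change was -1.16 ± 0.32 (SE, 95% interval -1.95 to -0.38), with an edgeR p of 0.0109 and an adjusted p of 0.170; DESeq2 gave an adjusted p of 0.0264. Over all alternatives the edgeR, DESeq2 or limma adjusted p ran from 0.0264 to 0.414. Control replicate 3, with the highest S1pr2, had the highest stellate and macrophage marker sums, and without it the log2 fold change was -0.85.

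S1pr3, which couples to Gq, Gi and G12/13 (chromosome 13, 51408618 to 51422797, + strand), followed the libraries more than the groups. It had 12.996, 48.4 and 38.0 CPM in KO replicates 1, 2 and 3, against 31.7, 42.0 and 113 CPM in control replicates 1, 2 and 3. KO replicate 1 was lowest and control replicate 3 highest, the same libraries that were lowest and highest in stellate cell markers, and the remaining 4 libraries overlapped. The log2 fold change was -0.91 ± 0.65 (SE, 95% interval -2.51 to 0.69, edgeR adjusted p = 0.509). Without control replicate 3 it was -0.16, and with both KO replicate 1 and control replicate 3 left out it was 0.23, the opposite sign. No direction can be given for S1pr3. An antisense transcript, Gm32834, overlaps S1pr3 but had 28 counts in all libraries together, against 3211 for S1pr3.

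**Figure D2:**
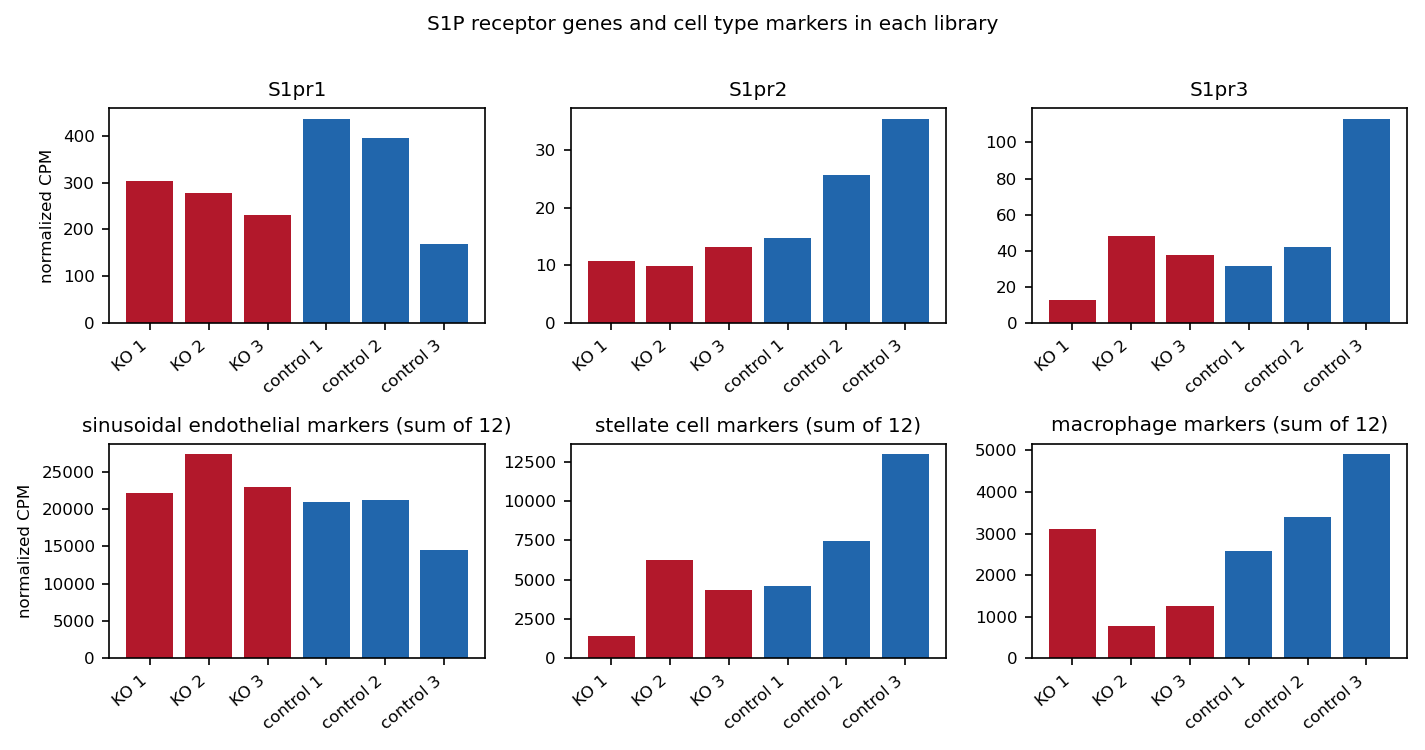
Normalized CPM of the 3 S1P receptor genes (upper row) and the summed CPM of 12 markers each of sinusoidal endothelium, stellate cells and macrophages (lower row), 1 bar for each library, KO to the left of control. Control replicate 3 holds the most S1pr2, S1pr3, stellate and macrophage marker RNA and the least S1pr1 and endothelial marker RNA.

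Per unit of length (RPKM, reads scaled to gene length and library total), S1pr1 made up 90.0%, 83.8% and 83.3% of the summed level of S1pr1 to S1pr5 in KO libraries, against 83.9%, 85.3% and 58.3% in control libraries. S1pr3 took 26.2% of that sum in control replicate 3, against 2.61% to 9.85% in KO libraries and 4.11% and 6.13% in the other control libraries. Thus S1pr1 was the most abundant S1P receptor RNA in every library of both groups.

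Of the kinases, Sphk1, the inducible enzyme of the cytosol and plasma membrane, was low in both groups (chromosome 11, 116529817 to 116536675, + strand). It had 5.73, 7.61 and 5.19 CPM in KO replicates 1, 2 and 3, against 7.46, 13.5 and 13.2 CPM in control replicates 1, 2 and 3. KO replicate 2 exceeded control replicate 1 by a small margin, and the other KO libraries were below all control libraries. Its log2 fold change was -0.88 ± 0.29 (SE, 95% interval -1.57 to -0.19), with an edgeR p of 0.0199 that did not hold after adjustment (adjusted p = 0.210).

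Sphk2, the kinase found largely in nucleus and mitochondria (chromosome 7, 45709463 to 45718002, - strand), averaged 69.3 ± 10.6 CPM in KO and 59.3 ± 2.01 CPM in control SECs (SD, n = 3 each). The log2 fold change of 0.22 ± 0.13 (SE) had a 95% interval of -0.09 to 0.54, and the groups overlapped (edgeR adjusted p = 0.413). Its last 741 bases overlap Dbp, a circadian transcription factor gene on the other strand, and 539 of these bases are exonic in both. Dbp had 38.4, 75.4 and 82.0 CPM in KO libraries, against 32.3, 28.2 and 34.4 CPM in control libraries, a log2 fold change of 1.04 ± 0.29 (SE, edgeR adjusted p = 0.170). No source used here says whether counting was stranded, so Sphk2 and Dbp reads cannot be fully told apart. By RPKM Sphk2 exceeded Sphk1 by 13.4, 13.7 and 17.02 times in KO libraries and by 10.3, 5.87 and 5.62 times in control libraries. This ratio separated the groups, with every KO library above every control library.

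The exporter Spns2 (chromosome 11, 72451638 to 72489920, - strand) was the steadiest of the 10 genes. It averaged 107 ± 6.98 CPM in KO and 100.4 ± 5.79 CPM in control SECs (SD, n = 3 each), and the groups overlapped. Its log2 fold change was 0.10 ± 0.10 (SE), with a 95% interval of -0.14 to 0.33 (edgeR adjusted p = 0.637).

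For the degrading enzymes the values leaned in opposite directions, and neither passed the adjusted threshold. Sgpp1, the phosphatase of the endoplasmic reticulum (chromosome 12, 75714248 to 75735729, - strand), had 386, 496 and 435 CPM in KO replicates 1, 2 and 3, against 344, 348 and 247 CPM in control replicates 1, 2 and 3. Every KO library was above every control library, with the gap between KO replicate 1 and control replicate 2 small beside the range within each group. The means were 439 ± 54.9 CPM in KO and 313 ± 57.2 CPM in control SECs (SD, n = 3 each), 1.403-fold, and the log2 fold change was 0.49 ± 0.18 (SE, 95% interval 0.06 to 0.92). EdgeR gave a p of 0.0321 and an adjusted p of 0.243. Sgpl1, the lyase that ends S1P (chromosome 10, 61098642 to 61147686, - strand), had 105, 79.9 and 89.8 CPM in KO replicates, against 104, 136 and 120 CPM in control replicates. Only KO replicate 1 reached into the control range. On the log2 scale the difference was -0.39 ± 0.15 (SE, 95% interval -0.75 to -0.03), with an edgeR p of 0.0370 and an adjusted p of 0.256. The ratio of Sgpp1 to Sgpl1 by RPKM was 4.60, 7.74 and 6.04 in KO libraries, against 4.12, 3.19 and 2.58 in control libraries, again without overlap. The 2 enzyme ratios were chosen after their values were seen and carry no test. The other ratios computed, S1pr1 over S1pr3, S1pr1 over S1pr2 and Lpar6 over S1pr1, overlapped between the groups. How often ratios of other gene pairs separate the groups was not computed.

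Lpar6, a receptor known in humans from inherited hair loss (chromosome 14, 73237891 to 73240358, + strand), gave the clearest separation. It had 371, 241 and 321 CPM in KO replicates 1, 2 and 3, against 128, 158 and 169 CPM in control replicates 1, 2 and 3. The lowest KO library stood well above the highest control library. Means were 311 ± 65.4 CPM in KO and 152 ± 20.9 CPM in control SECs (SD, n = 3 each), 2.05-fold, and the log2 fold change was 1.04 ± 0.19 (SE, 95% interval 0.57 to 1.51). The edgeR p was 0.00151, rank 240 among the 15404 tested genes, and its adjusted p of 0.0967 missed the threshold. Leaving out each library in turn gave log2 fold changes of 0.90 to 1.19, and over all alternatives the adjusted p ran from 2.7e-04 (DESeq2) to 0.32.

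Lpar6 lies wholly within the span of the tumour suppressor gene Rb1, on the opposite strand, and 408 of its bases are also annotated as Rb1 exon. Rb1 had 31.5, 45.7 and 50.2 CPM in KO libraries and 52.3, 33.1 and 37.5 CPM in control libraries, with 2830 counts in all against 16024 for Lpar6. The Rb1 log2 fold change was 0.05 ± 0.24 (SE, 95% interval -0.53 to 0.63, edgeR adjusted p = 0.928). Whether counting was stranded is not known, so Lpar6 and Rb1 reads in the shared bases cannot be fully told apart.

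Lpar4, a second receptor for LPA and a close relative of Lpar6 (chromosome X, 106920625 to 106933899, + strand), was rare, with 54 to 110 counts in KO and 36 to 52 counts in control libraries. Its levels were 9.997, 4.42 and 8.44 CPM in KO replicates 1, 2 and 3, against 5.55, 4.05 and 3.42 CPM in control replicates 1, 2 and 3. KO replicate 2 lay inside the control range and the other KO libraries above it. EdgeR gave a log2 fold change of 0.81 ± 0.36 (SE, 95% interval -0.05 to 1.68, adjusted p = 0.307). By RPKM, Lpar6 made up 97.1%, 96.4% and 96.7% of the summed Lpar1 to Lpar6 level in KO libraries, against 92.4%, 93.0% and 91.7% in control libraries. Lpar6 was thus nearly all of the LPA receptor RNA in both groups, with every KO share above every control share.

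**Figure D3:**
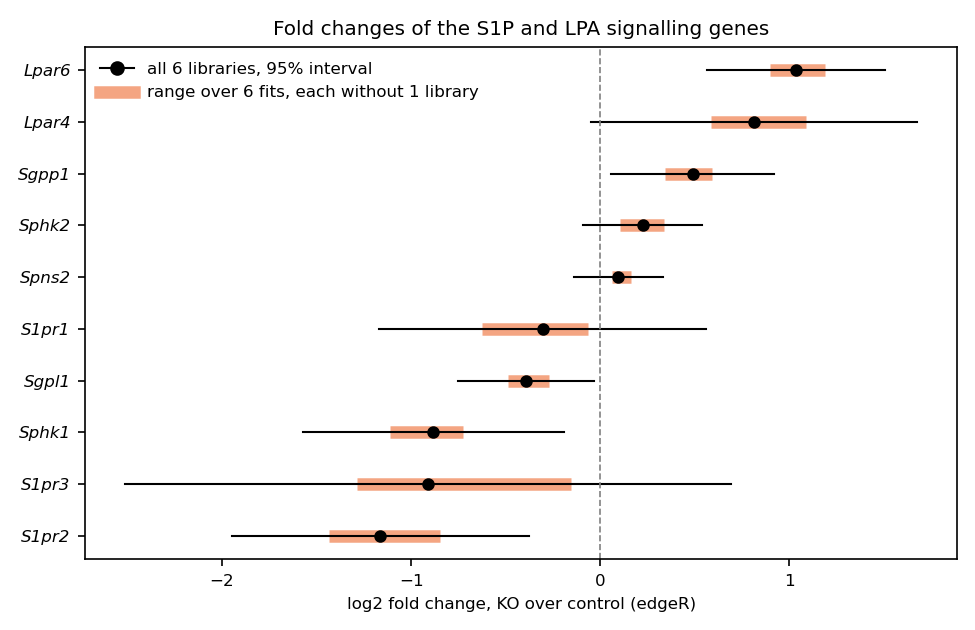
Log2 fold change of KO over control for the 10 genes by edgeR (points), with 95% intervals over all 6 libraries (lines) and the range over 6 fits that each leave out 1 library (bands). The intervals of Lpar6, Sgpp1, Sgpl1, Sphk1 and S1pr2 exclude 0 before adjustment over all genes, and the band of S1pr3 is the widest, from -1.29 to -0.16.

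Because the endothelial marker sum itself was higher in KO libraries, each gene was also expressed per 1000 CPM of endothelial markers in the same library, a scale chosen after the data were seen and resting on a sum whose members did not all move one way. On this scale Lpar6 was 16.7, 8.82 and 14.0 in KO libraries, against 6.12, 7.45 and 11.6 in control libraries. KO replicate 2 was then below control replicate 3, and the ratio of the means was 1.57. Sgpp1 was 17.4, 18.1 and 19.0 in KO libraries, against 16.39, 16.43 and 16.97 in control libraries. These values still did not overlap, but the ratio of the means was 1.10. S1pr2 was 0.488, 0.359 and 0.577 in KO libraries, against 0.706, 1.21 and 2.43 in control libraries, a ratio of 0.328. These S1pr2 values could not overlap, because S1pr2 was lower and the marker sum higher in every KO library. The groups were separate on this scale for 4 of the 10 genes (Sgpp1 higher, S1pr2, Sphk1 and Sgpl1 lower), against 31.4% of all tested genes. Sphk2 and Spns2, slightly higher in KO SECs by CPM, were lower on this scale, with ratios of 0.889 and 0.815. Dividing by the geometric mean of the markers instead gave ratios of 1.77 for Lpar6, with KO replicate 2 again below control replicate 3, 1.23 for Sgpp1, 0.366 for S1pr2, 0.998 for Sphk2 and 0.915 for Spns2. On that scale 3 of the 10 genes were separate (Sgpp1, S1pr2 and Sphk1), against 17.1% of all tested genes.

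The order of the length-scaled levels showed which genes dominated. In KO SECs the RPKM means were 136 for Sgpp1, 130 for Lpar6, 92.0 for S1pr1, 30.7 for Spns2, 22.8 for Sgpl1, 17.1 for Sphk2, 7.54 for S1pr3, 2.97 for S1pr2, 1.87 for Lpar4 and 1.18 for Sphk1. The libraries of neighbours in this order did not overlap between S1pr1 and Spns2, Spns2 and Sgpl1, Sphk2 and S1pr3, and S1pr2 and Lpar4. In control SECs the means were 107 for S1pr1, 91.4 for Sgpp1, 59.8 for Lpar6, 28.2 for Sgpl1, 27.0 for Spns2, 13.8 for Sphk2, 13.4 for S1pr3, 6.28 for S1pr2, 2.07 for Sphk1 and 0.985 for Lpar4. Here neighbours were separate between Sgpp1 and Lpar6, Lpar6 and Sgpl1, Spns2 and Sphk2, S1pr2 and Sphk1, and Sphk1 and Lpar4. All other neighbours overlapped in at least 1 library, so that the order among Sgpp1, Lpar6 and S1pr1 in KO SECs was not resolved.

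**Figure D4:**
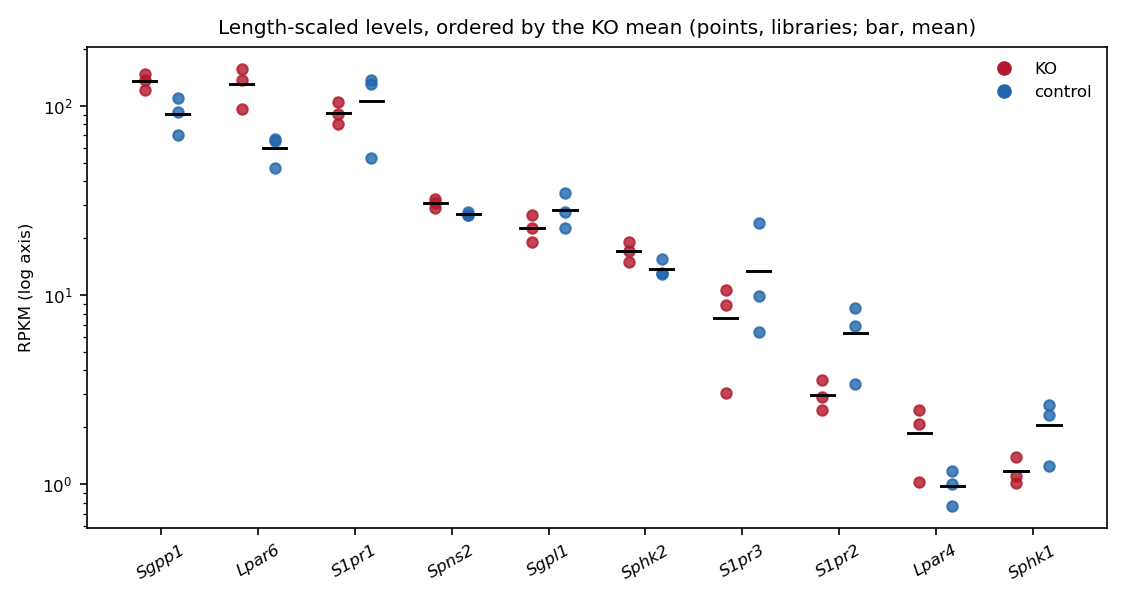
RPKM of the 10 genes on a log axis, ordered by the KO mean, with KO libraries left and control libraries right of each tick (points, n = 3 each) and bars at the means. Sgpp1, Lpar6 and S1pr1 lie near or above 50 RPKM in both groups, and Lpar4 and Sphk1 lie below 3 RPKM in every library.

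The wider pathway was described with 80 further genes in 5 lists, and edgeR called 0 of the 68 that were tested. DESeq2 called 3 of them, Acer3, Cers4 and Ppap2a, a smaller share than the 6.77% of all genes that it called. Among receptors outside the 10, which include receptors of lysophosphatidylserine, 6 of 9 were tested, all with negative values and a median log2 fold change of -0.90. Among all 15404 tested genes, 8290 had negative values. EdgeR called 0 of the 6, and the groups were separate for 1, Gpr34. That gene averaged only 0.584 CPM in KO and 1.33 CPM in control SECs. S1pr4, a receptor of leukocytes, averaged 10.6 ± 2.52 CPM in KO and 22.5 ± 15.1 CPM in control SECs (edgeR adjusted p = 0.315). It was highest, at 39.9 CPM, in control replicate 1, the library with the most neutrophil marker RNA. KO replicate 1, with the next most, had 13.1 CPM. Control replicate 2, with the least, had 14.7 CPM. Lpar5 averaged 2.53 ± 1.38 CPM in KO and 5.54 ± 3.07 CPM in control SECs (edgeR adjusted p = 0.374). Lpar3 was at 0 in all libraries.

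In the supply of ceramide and sphingosine, the substrate of the kinases, 24 of 27 genes were tested, 9 with positive and 15 with negative values and a median log2 fold change of -0.08. Acer3, an alkaline ceramidase that releases sphingosine from ceramide, averaged 83.7 ± 10.9 CPM in KO and 51.4 ± 6.10 CPM in control SECs, a log2 difference of 0.70 ± 0.14 (SE, edgeR adjusted p = 0.106). Cers4, a ceramide synthase that consumes such bases, averaged 49.0 ± 3.34 CPM in KO and 65.9 ± 3.71 CPM in control SECs, a log2 difference of -0.43 ± 0.10 (SE, edgeR adjusted p = 0.127). For both genes the groups did not overlap. That was so for 4 of the 24, a smaller share than the 24.9% of all tested genes.

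In the production and breakdown of LPA, 9 of 12 genes were tested, 3 with positive and 6 with negative values and a median of -0.14. Ppap2a (also Plpp1), a surface phosphatase that dephosphorylates LPA and S1P, averaged 1002 ± 84.2 CPM in KO and 669 ± 77.2 CPM in control SECs, without overlap (log2 difference 0.58 ± 0.14 SE, edgeR adjusted p = 0.139). Agpat5, which acylates LPA to phosphatidic acid, averaged 60.1 ± 18.0 CPM in KO and 103 ± 32.6 CPM in control SECs (edgeR adjusted p = 0.279). Enpp2, which encodes autotaxin and is named outside the rule after seeing its values, had 12.27, 1.64 and 5.27 CPM in KO libraries, against 2.24, 2.45 and 3.04 CPM in control libraries. KO replicate 2 was the lowest of the 6 libraries for Enpp2 and KO replicate 1 the highest.

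Downstream of the receptors, 24 of 25 G protein, exchange factor and regulator genes were tested, 9 with positive and 15 with negative values and a median of -0.09. Their groups did not overlap for 9 of the 24, 4 higher and 5 lower in KO SECs, beside 24.9% of all tested genes. Rgs5, a regulator of G protein signalling known from pericytes, averaged 115 ± 42.5 CPM in KO and 291 ± 164 CPM in control SECs (log2 difference -1.34 ± 0.48 SE, adjusted p = 0.245 by edgeR). As with stellate markers, Rgs5 was lowest in KO replicate 1, at 66.1 CPM, and highest in control replicate 3, at 477 CPM.

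In S1P carriage, export and further breakdown, 5 of 7 genes were tested, 2 with positive and 3 with negative values and a median of -0.21. Aldh3a2, the dehydrogenase that takes up the lyase product, averaged 78.3 ± 7.90 CPM in KO and 94.8 ± 6.77 CPM in control SECs (edgeR adjusted p = 0.282). Abca1, a lipid exporter, averaged 437 ± 232 CPM in KO and 293 ± 33.5 CPM in control SECs (edgeR adjusted p = 0.450).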

How the data were processed

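Total RNA of isolated SECs was sequenced in 6 libraries, grouped by the sample titles as KO and control. The deposited table holds raw counts per gene and RPKM values that the authors computed from them; 100.0% of the RPKM values equalled count over gene length and library total within 0.1%. The submitters' processing notes name bcl2fastq, TopHat2 2.0.13 and mm10. Which program and annotation gave the counts, and whether strand was used, is not given in the sources used here. Names turned into dates in 27 rows were restored by gene ID.

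The counts were tested with edgeR 4.0.16 in R 4.3.3 (TMM, filterByExpr, robust quasi-likelihood F test, 2-sided, Benjamini-Hochberg over 15404 genes, threshold 0.05), after a test of the script on simulated data. Values are normalized CPM, with mean ± SD over 3 libraries. RPKM served only for comparing genes. Nothing in the labels says that replicates came from separate mice, so p-values reflect only how these samples vary, which may be technical. Coordinates are from the table, exons from GENCODE and promoters from RefSeq. Of 169 entries in the lists of genes and markers, 163 matched by symbol, 5 by gene ID and 1 not at all.

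The 10 genes and the lists were chosen with earlier results of these data known. The text names all 10, Rbpj, and from each pathway list the genes called or else the 2 with the smallest p, of which 1 is not reported here. Other genes were chosen after their values were seen.

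Alternatives were RLE size factors, DESeq2 1.42.0, limma 3.58.1 voom with quality weights, no filter, a stricter filter, a replicate block, removal of 37 ribosomal RNA rows, each library left out in turn, CPM per kilobase for the order of levels and, added after seeing the data, removal of KO replicate 1 with control replicate 3 and scaling by the sum or the geometric mean of the endothelial markers.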

Additional observations from a re-analysis of the deposited data

How the results depend on the processing

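In all alternative fits the log2 fold changes of the 10 genes kept their direction, except S1pr3, which was 0.23 without KO replicate 1 and control replicate 3, an alternative chosen after seeing the data; its values without single libraries ran from -1.29 to -0.16. Genes called higher and lower among all tested genes (16 and 14) were 35 and 20 with RLE size factors, 544 and 411 with DESeq2, 291 and 198 with limma-voom and quality weights, 114 and 62 with no filter, 47 and 26 with a stricter filter, 1 and 2 with the replicate block, and 1 and 0 without KO replicate 1 and control replicate 3. Leaving out single libraries gave 0 to 23 higher and 0 to 18 lower, with 0 of each except without KO replicate 1. Of the 10 genes, 2 were called by DESeq2 (Lpar6 and S1pr2), and 1 by limma-voom and with no filter (Lpar6). Pathway genes called were 3 with DESeq2, which called 6.77% of all genes. Scaled to endothelial markers, the ratio turned below 1 for Sphk2 (0.889 by their sum, 0.998 by their geometric mean) and Spns2 (0.815 and 0.915), and 4 and 3 of the 10 genes were separate. The groups did not overlap for 3 to 6 of the 10 genes when 1 library was left out, beside 31.1% to 42.1% of all genes, and for 7 without KO replicate 1 and control replicate 3, beside 53.5% of all genes. The causes were not tested. Groups of fewer libraries separate more easily, so these counts are to be read beside the shares of all genes.

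KO and control libraries share replicate numbers, and nothing in the labels says that a number marks a pair. Deviations of same-numbered libraries correlated at 0.19, 0.03 and 0.42 for numbers 1, 2 and 3. KO replicates 1 and 3 each correlated best with the control library of their own number. KO replicate 2 correlated best with control replicate 1 (0.09). These values do not settle whether the numbers mark pairs, and the numbers were not taken to pair the samples. With the replicate block 0 of the 10 genes were called.

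Low counts limit Lpar4 and Sphk1, and 3 libraries a group limit every call. Agpat1 and Arrb2 are listed at 0 in all libraries, although most cells use them, so a value of 0 in the table can also be a failed count.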
